A study of Mus musculus with 12 samples.

Results

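The transcription factors of the epithelial-mesenchymal transition, with the cadherins and matrix genes by which that transition is read, were examined in a mouse lung tumour line. The factors were Zeb1, Zeb2, Snai1, Snai2 and Twist1, and the others were Cdh1, Cdh2, Vim, Fn1 and Tgfbi. Members were these 10 symbols out of 18193 genes with a probe set of their own, and all 10 were measured. They were read by 25 probe sets out of 34945 that the platform annotation pairs with 1 symbol. For each gene the probe set with the highest mean over all arrays served as lead, without use of any difference between groups. The line, A2C12, was derived from lung tumours of mice that carry c-myc and c-raf transgenes on the C57BL/6 background, and every group shares this origin. The groups were the side population (SP) of cells given a monoclonal antibody to mouse EpCAM, the non-SP cells given it, the untreated SP cells and the untreated non-SP cells, with 3 biological replicates each. The antibody was given at 100 µg/ml for 48 h. SP cells stay dim in Hoechst staining, since transporters export this DNA dye, and a sorter separated them from the brighter non-SP cells after 90 min of staining at 5 µg/ml. The protocols of all 4 groups also name reserpine at 50 µmol/l beside the stain. The study asked how the sorted fractions differ and what the antibody, directed at an epithelial adhesion protein, does to their transcripts.

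In the epithelial-mesenchymal transition, cells give up the tight contacts of an epithelium and take on the shape and matrix of mesenchymal cells. Zinc finger proteins of the Zeb and Snail families bind E-box hexamers in promoters of epithelial genes and repress them, while Twist1 is a helix-loop-helix factor that works in the same direction. E-cadherin (Cdh1) is their classical repressed target, and N-cadherin (Cdh2), vimentin (Vim) and fibronectin (Fn1) are the usual mesenchymal markers. Tgfbi encodes a secreted matrix protein induced by TGF-beta, a signal that can start the transition. In lung adenocarcinoma models, loss of Cdh1 with gain of Cdh2 is commonly called the cadherin switch.

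All values are log2 RMA values, a scale on which 1 unit is a doubling of hybridisation signal, and their precision is limited by how few arrays there are. Array medians lay between 5.72 and 6.06, and single values between 2.28 and 14.7. On the 2 anti-EpCAM arrays numbered 2 the actin signal at the 3′ end exceeded that at the 5′ end by 1.03 (SP) and 0.895 (non-SP) log2 units, more than on any other array, where it was 0.733 or less. They also had the lowest mean correlations with the other arrays, at 0.983 (SP) and 0.978 (non-SP). The labelled tumour line was checked against marker lists. Among 8 epithelial genes Krt19 had a mean of 11.7, Epcam 8.11, Cldn4 5.43 and Krt7 4.70. Of the 7 measured alveolar type II genes, Sftpc had a mean of 5.64, Sftpa1 5.04, Sftpd 5.15, Nkx2-1 5.55, Sftpb 7.44, Etv5 8.01 and Abca3 9.01. Among the 8 fibroblast genes Col1a2 had a mean of 12.6, Col3a1 12.3, Col1a1 11.5, Pdgfrb 10.5 and Pdgfra 9.59. Thy1 was at 5.28 and Lum at 4.15. Dcn, at a mean of 9.27, varied widely, from 7.85 to 11.4 over the arrays (SD 1.29). The 7 measured leukocyte genes had means of 3.42 (Ptprc) to 9.98 (Csf1r), with Itgam at 3.87, Cd3e at 6.76, Cd68 at 7.33 and Cd14 at 8.94. The 8 endothelial genes had means of 4.09 (Tie1) to 6.70 (Kdr), with Pecam1 at 4.55. Means of different probe sets are not ranked against each other by abundance. No marker was listed at 0, but no value on these arrays lay below 2.28, and whether each marker was detected was not tested. The mean level of the fibroblast list lay between 9.14 and 9.60 in anti-EpCAM SP, 9.25 and 9.47 in anti-EpCAM non-SP, 9.27 and 9.47 in untreated SP and 9.43 and 9.55 in untreated non-SP arrays. The part of the marker lists in the results below was not tested.

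No member passed the test in any comparison. With limma, 0 of 10 members and 0 of all genes (0%) had an adjusted p under 0.05, in either direction, in each of the 4 comparisons of groups and in their interaction. Without adjustment, the same limit on p held 585 genes for the antibody in non-SP cells, 835 for the antibody in SP cells, 127 between anti-EpCAM fractions, 4 between untreated fractions and 43 (0.236%) in the interaction. None of the 43 was a member. These counts take the 12 arrays as independent, and fits with the SP and non-SP arrays of 1 number as a block are given below. The members with most spread over the 12 arrays were Tgfbi, Zeb2 and Cdh1, with SDs of 0.57, 0.51 and 0.47 and percentiles of 97.8, 95.8 and 94.2 among the SDs of all genes. Those with least spread were Fn1, Zeb1 and Vim, with SDs of 0.08, 0.12 and 0.13 and percentiles of 0.291, 3.10 and 4.56.

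**Figure D1:**
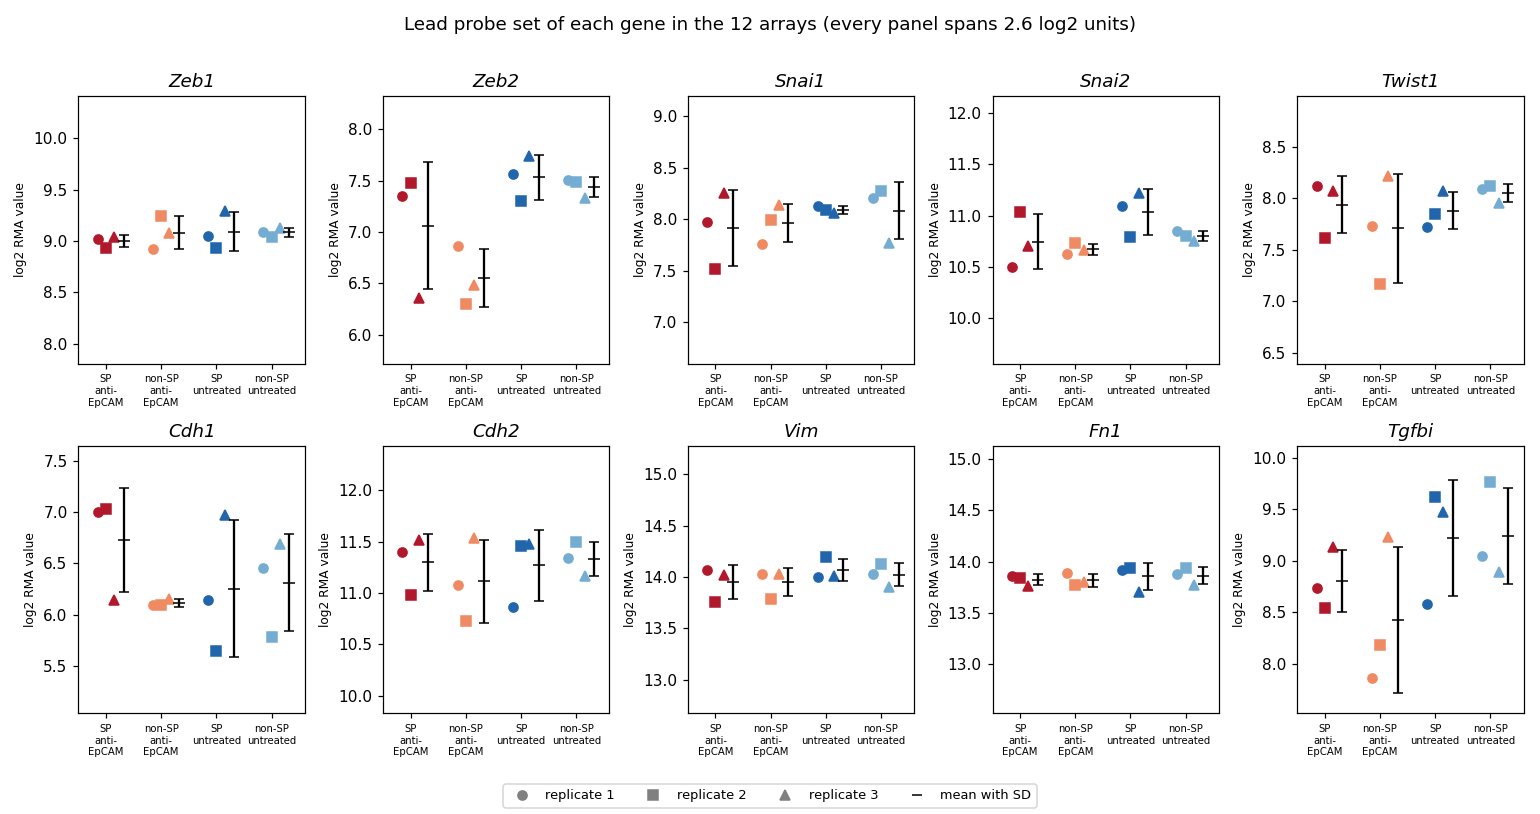
Log2 RMA value of the lead probe set of each gene (vertical axis, 2.6 log2 units in every panel) in SP anti-EpCAM, non-SP anti-EpCAM, SP untreated and non-SP untreated arrays; points are arrays with the replicate number as symbol, and bars give the mean with its SD. The 3 non-SP anti-EpCAM points of Zeb2, from 6.30 to 6.86, lie below all 6 untreated points, and those of Cdh1 lie within 6.09 to 6.16, while the points of Fn1 span the least of all panels.

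Zeb2, a zinc finger repressor of Cdh1 and of other epithelial genes, had the largest difference among the 10 lead probe sets. Its lead probe set read 7.35, 7.48 and 6.36 in anti-EpCAM SP arrays and 6.86, 6.30 and 6.49 in anti-EpCAM non-SP arrays. It read 7.57, 7.30 and 7.74 in untreated SP arrays and 7.50, 7.48 and 7.33 in untreated non-SP arrays. All 3 anti-EpCAM non-SP arrays thus lay below all 3 untreated non-SP arrays, whereas in SP cells 1 array, that numbered 3, was low and the other 2 lay within the untreated values. Zeb2 averaged 6.55 ± 0.29 in anti-EpCAM non-SP cells and 7.44 ± 0.09 in untreated non-SP cells (SD, n = 3 each), a log2 difference of -0.89 ± 0.26 (SE), or 0.541-fold with a 95% interval from 0.364 to 0.804. In limma its unadjusted p was 0.00525 and its adjusted p 0.988, so it did not pass over all genes. Relative to the median of all genes, which was -0.10 in this comparison, the difference was -0.79. In SP cells the antibody difference was -0.47 ± 0.26 (SE), with a 95% interval from -1.04 to 0.10, and it stood at -0.12 without the anti-EpCAM SP array numbered 3. Between fractions Zeb2 averaged 7.06 ± 0.62 in anti-EpCAM SP cells and 6.55 ± 0.29 in anti-EpCAM non-SP cells (SD, n = 3 each), a difference of 0.51 ± 0.26 (SE). In untreated cells the fractions differed by 0.09 ± 0.26 (SE). The antibody difference in SP minus that in non-SP cells was 0.41, with an interval from -0.39 to 1.22, or -0.29 to 1.12 with the SP and non-SP arrays of 1 number as a block, and a difference in response was not shown.

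These values moved with the anti-EpCAM arrays numbered 2. Without both of them the antibody difference of Zeb2 was -0.76 in non-SP cells and -0.68 in SP cells (adjusted p = 1 and 0.722 in limma). The difference between the anti-EpCAM fractions was then 0.18, against 0.51 with all arrays. What these 2 arrays add was measured only in this way, and the part of RNA quality was not tested.

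Zeb1, the other Zeb repressor, was nearly constant in its lead probe set. It averaged 9.00 ± 0.06 in anti-EpCAM SP, 9.08 ± 0.16 in anti-EpCAM non-SP, 9.09 ± 0.19 in untreated SP and 9.09 ± 0.04 in untreated non-SP cells (SD, n = 3 each). The 12 arrays ran from 8.92 to 9.30 and the groups overlapped throughout. Its antibody difference in non-SP cells had a 95% interval from -0.33 to 0.32, and in SP cells one from -0.42 to 0.23.

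Both antibody comparisons put Zeb2 and Tgfbi lowest among the members, so the stretches just before the annotated starts of these 2 genes are shown, with that of Snai1 because it alone of 5 such stretches held the E-box of Zeb and Snail proteins. Sequences are from RefSeq (GRCm38.p6), 150 bases each on the strand of the gene and 5′ to 3′, and capitals mark motif matches. RefSeq promoters were matched by symbol for 5 of the 10 members (Zeb2, Snai1, Twist1, Vim and Tgfbi).
Zeb2 (chr2:45117443-45117592, minus strand): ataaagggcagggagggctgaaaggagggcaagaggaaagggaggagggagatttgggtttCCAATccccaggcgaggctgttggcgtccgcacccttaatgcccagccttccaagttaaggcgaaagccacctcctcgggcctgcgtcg
Snai1 (chr2:167538045-167538194, plus strand): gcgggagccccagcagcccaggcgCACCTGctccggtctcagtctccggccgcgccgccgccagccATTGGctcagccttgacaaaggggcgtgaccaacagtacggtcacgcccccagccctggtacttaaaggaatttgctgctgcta
Tgfbi (chr13:56609436-56609585, plus strand): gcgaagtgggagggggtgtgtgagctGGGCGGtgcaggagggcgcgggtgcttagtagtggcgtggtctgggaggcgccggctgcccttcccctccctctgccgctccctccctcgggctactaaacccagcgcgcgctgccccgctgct
The E-box was searched as CAGGTG on both strands, and reads CACCTG on the other one. The GC box was searched as GGGCGG, the CCAAT box by its name's letters and the TATA box as TATAAA, each on both strands as well. No match overlapped another. Counted back from the annotated start, the E-box of Snai1 began at -126 and its CCAAT box, on the other strand, at -84. The CCAAT box of Zeb2 began at -89 and the GC box of Tgfbi at -124. Among 32851 windows of the same length, 10.6% held the E-box, 28.6% the GC box, 24.5% the CCAAT box and 7.57% the TATA box, and a match describes these letters only.

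Neither Snail gene nor Twist1 passed the test in any comparison. Snai1, which represses Cdh1 and is itself short-lived as a protein, averaged 7.91 ± 0.37 in anti-EpCAM SP, 7.96 ± 0.19 in anti-EpCAM non-SP, 8.09 ± 0.04 in untreated SP and 8.08 ± 0.28 in untreated non-SP cells (SD, n = 3 each). Its lowest array, at 7.52, was the anti-EpCAM SP array numbered 2. The other 11 arrays ran from 7.76 to 8.28, and the groups overlapped.

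Snai2, the Slug repressor, had values close together in non-SP cells. It read 10.63, 10.73 and 10.66 in anti-EpCAM non-SP arrays and 10.85, 10.80 and 10.75 in untreated non-SP arrays, which did not overlap. In SP cells it read 10.50, 11.03 and 10.71 with the antibody and 11.09, 10.79 and 11.22 without it, and these overlapped. The antibody difference was -0.13 ± 0.17 (SE) in non-SP cells, smaller than its standard error, and it stood at 0.02 with arrays centred on their own medians. In SP cells it was -0.29 ± 0.17 (SE), and -0.43 without both anti-EpCAM arrays numbered 2 (unadjusted p = 0.0236, adjusted p = 0.722 in limma). The lead probe set of Snai2 carries an x_at name and can take up related transcripts. Its other probe set, 1418673_at, differed by -0.32 in non-SP and by -0.32 in SP cells.

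Twist1 read 8.13, 7.62 and 8.07 in anti-EpCAM SP arrays and 7.74, 7.16 and 8.22 in anti-EpCAM non-SP arrays. It read 7.72, 7.85 and 8.08 in untreated SP arrays and 8.09, 8.12 and 7.95 in untreated non-SP arrays. The anti-EpCAM non-SP array numbered 2 was the lowest of all 12 and that numbered 3 the highest, so the groups overlapped. The antibody difference in non-SP cells was -0.35 ± 0.24 (SE), and it was -0.08 without the anti-EpCAM non-SP array numbered 2. In SP cells it was 0.06 ± 0.24 (SE).

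Cdh1, which encodes E-cadherin, the calcium-dependent glue of epithelial contacts, was measured by 1 probe set at a mean of 6.35. That mean was at a percentile of 42.9 among genes, below the median gene mean of 7.02. Whether this signal stood above background was not tested. It read 7.00, 7.03 and 6.14 in anti-EpCAM SP arrays and 6.09, 6.10 and 6.16 in anti-EpCAM non-SP arrays. It read 6.14, 5.65 and 6.97 in untreated SP arrays and 6.46, 5.78 and 6.69 in untreated non-SP arrays. The anti-EpCAM SP arrays numbered 1 and 2 stood above every other array, but that numbered 3 lay among the anti-EpCAM non-SP arrays, and the untreated arrays spread from 5.65 to 6.97. Cdh1 averaged 6.73 ± 0.51 in anti-EpCAM SP cells and 6.12 ± 0.04 in anti-EpCAM non-SP cells (SD, n = 3 each). The difference was 0.61 ± 0.33 (SE), or 1.53-fold with a 95% interval from 0.924 to 2.52, and did not pass (adjusted p = 1 in limma). In untreated cells the fractions differed by -0.06 ± 0.33 (SE). The antibody difference was 0.47 ± 0.33 (SE) in SP cells and -0.20 ± 0.33 (SE) in non-SP cells. Their difference, 0.67, had an interval from -0.36 to 1.69. With the SP and non-SP arrays of 1 number as a block that interval ran from 0.04 to 1.29 (unadjusted p = 0.0396, adjusted p = 0.767 in limma), and that of the anti-EpCAM fraction difference from 0.17 to 1.05. The antibody difference in SP cells stood at 0.17 without the untreated SP array numbered 2 and at 0.83 without the untreated SP array numbered 3.

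Cdh2, which encodes N-cadherin of mesenchymal and neural cells, read 11.40, 10.98 and 11.51 in anti-EpCAM SP arrays and 11.08, 10.73 and 11.53 in anti-EpCAM non-SP arrays. It read 10.87, 11.46 and 11.48 in untreated SP arrays and 11.34, 11.50 and 11.16 in untreated non-SP arrays. Every pair of groups overlapped, and the antibody difference was 0.03 ± 0.24 (SE) in SP and -0.22 ± 0.24 (SE) in non-SP cells. Its other probe set, 1449244_at, gave -0.26 in non-SP cells and, with the opposite sign to the lead, -0.20 in SP cells.

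A cadherin switch would move Cdh1 and Cdh2 in opposite directions. Their lead probe sets differed with the same sign in all 4 comparisons of groups. Cdh1 and Cdh2 differed by 0.61 and 0.18 between anti-EpCAM and by -0.06 and -0.06 between untreated fractions. For the antibody they differed by -0.20 and -0.22 in non-SP and by 0.47 and 0.03 in SP cells. Cdh2 1449244_at had the opposite sign to Cdh1 between untreated fractions (0.04) and for the antibody in SP cells (-0.20). Within each array the Cdh1 value was also taken minus the Cdh2 value, which reads their balance and not opposite movement. This quantity can be compared between arrays but says nothing on which of the 2 transcripts is more abundant. It was higher by 0.43 in anti-EpCAM SP than in anti-EpCAM non-SP cells and by 0.44 in anti-EpCAM SP than in untreated SP cells, with SDs of 0.73 in anti-EpCAM SP, 0.37 in anti-EpCAM non-SP and 0.70 in untreated SP arrays. In non-SP cells the antibody moved it by 0.02, and untreated SP and non-SP cells differed by 0.01. All 4 differences were smaller than the largest replicate SD. That SD is a spread of single arrays and not the error of a difference of means, and it leaves out the likeness of arrays of 1 number. The quantity itself was not tested. Within pairs, SP minus non-SP was 0.60, 0.68 and 0.003 in anti-EpCAM cells and 0.15, -0.09 and -0.04 in untreated cells, so the anti-EpCAM pairs numbered 1 and 2 were above all 3 untreated pairs and that numbered 3 was among them. Over the 12 arrays Cdh1 and Cdh2 were nearly unrelated, with a Pearson r of -0.0702, in arrays of which SP and non-SP arrays of 1 number resemble each other.

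Vim, the intermediate filament protein of mesenchymal cells, and Fn1, which builds fibronectin fibrils in the matrix, had small differences in their lead probe sets, which are among the brightest on the arrays. Their means were at percentiles of 99.8 and 99.7 among genes, with array maxima of 14.58 to 14.74, and whether signal this bright can still show a difference was not tested. Vim averaged 13.95 ± 0.17 in anti-EpCAM SP, 13.95 ± 0.14 in anti-EpCAM non-SP, 14.07 ± 0.11 in untreated SP and 14.02 ± 0.11 in untreated non-SP cells (SD, n = 3 each). Fn1 averaged 13.82 ± 0.05 in anti-EpCAM SP, 13.82 ± 0.06 in anti-EpCAM non-SP, 13.86 ± 0.13 in untreated SP and 13.86 ± 0.08 in untreated non-SP cells (SD, n = 3 each). For Fn1 the 95% intervals of all 4 group differences lay between -0.34 and 0.30. Vim 1438118_x_at, at a mean of 13.73, differed by -0.19 for the antibody in non-SP cells with no overlap of arrays. The second Fn1 probe set, 1437218_at, at a mean of 6.92, differed more. It read 7.49, 6.28 and 6.76 in anti-EpCAM SP arrays and 6.84, 5.67 and 6.69 in anti-EpCAM non-SP arrays. It read 7.61, 6.99 and 6.52 in untreated SP arrays and 7.34, 7.64 and 7.26 in untreated non-SP arrays. Its 3 anti-EpCAM non-SP arrays lay below the 3 untreated non-SP arrays, with a difference of -1.01 ± 0.36 (SE) that did not pass over all probe sets (unadjusted p = 0.0158, adjusted p = 0.972 in limma), and in SP cells the difference was -0.19. Which transcript of Fn1 it reads was not determined.

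Tgfbi, whose protein links collagens and integrins, was the second member with a large antibody difference. It read 8.74, 8.54 and 9.14 in anti-EpCAM SP arrays and 7.86, 8.18 and 9.23 in anti-EpCAM non-SP arrays. It read 8.58, 9.62 and 9.47 in untreated SP arrays and 9.05, 9.77 and 8.89 in untreated non-SP arrays. The anti-EpCAM non-SP arrays numbered 1 and 2 were the lowest of the 12, and that numbered 3 stood among the untreated arrays. Tgfbi averaged 8.43 ± 0.71 in anti-EpCAM non-SP cells and 9.24 ± 0.47 in untreated non-SP cells (SD, n = 3 each), a log2 difference of -0.81 ± 0.37 (SE), or 0.570-fold with a 95% interval from 0.329 to 0.987. Its unadjusted p was 0.0455 and its adjusted p 0.988 in limma, and relative to the median of all genes the difference was -0.71. In SP cells the difference was -0.42 ± 0.37 (SE), or -0.22 without the untreated SP array numbered 2, with 8.81 ± 0.30 in anti-EpCAM SP cells and 9.22 ± 0.56 in untreated SP cells (SD, n = 3 each). The lead probe set carries an x_at name. The 3 other probe sets followed the lead closely over the 12 arrays, with Pearson r from 0.878 to 0.961, and differed by -0.43 to -0.62 in non-SP and by -0.21 to -0.60 in SP cells.

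**Figure D2:**
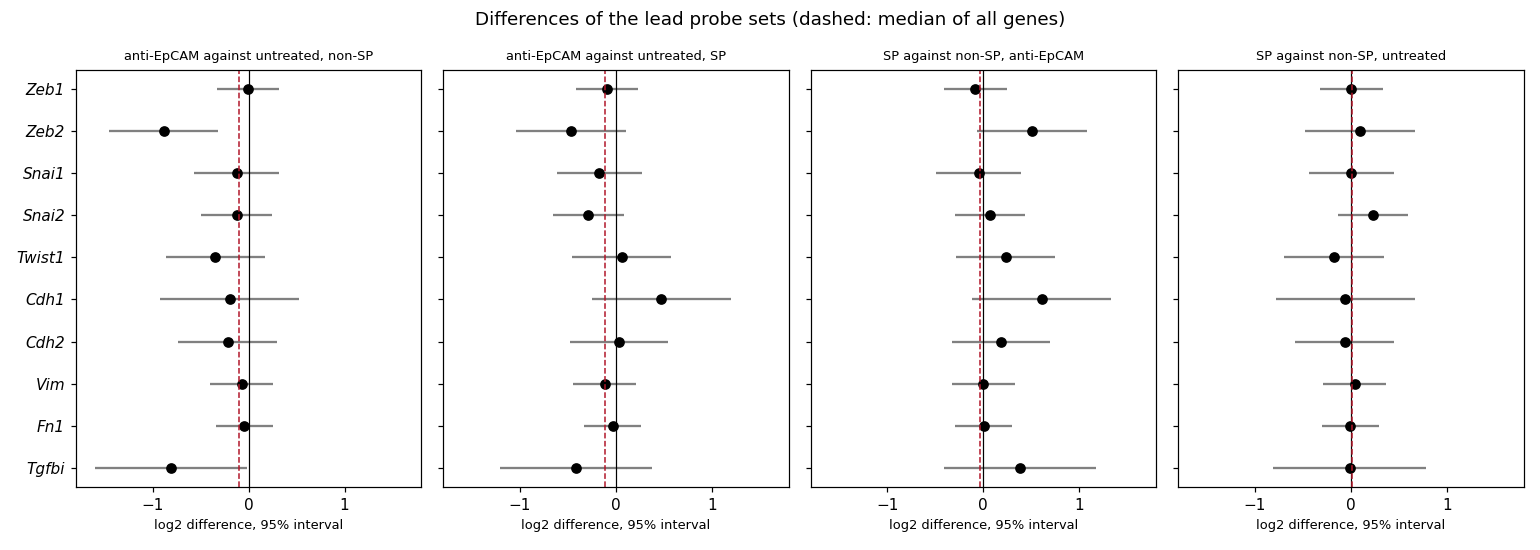
Log2 difference of the lead probe set of each gene (points) with its 95% interval (bars, limma) for the antibody in non-SP and SP cells and for SP against non-SP cells with and without antibody; dashed lines mark the median of all genes. In non-SP cells the antibody intervals of Zeb2, -1.46 to -0.32, and Tgfbi, -1.60 to -0.02, lie below 0. Between untreated fractions the points run from -0.17 (Twist1) to 0.23 (Snai2).

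Set side by side, the antibody comparisons share no control arrays, although each SP array resembles the non-SP array of its number. In non-SP cells 2 of 10 members, Zeb2 and Tgfbi, had an unadjusted p under 0.05 by limma, against 3.22% of all genes. In SP cells 0 of 10 did, against 4.59% of all genes. The count for non-SP cells rests on lead probe sets. In the limma fit of all probe sets, the other Tgfbi probe sets had unadjusted p from 0.0836 to 0.110 there. Zeb2 1434298_at, at 0.0305, and Fn1 1437218_at, at 0.0158, are not leads and had one under 0.05. In non-SP cells 2 of 10 lead probe sets, of Zeb2 and Snai2, had all anti-EpCAM arrays below all untreated arrays, against 6.62% of genes. In SP cells 0 of 10 did, against 8.04%. Overlap was read on the values as deposited only. With arrays centred on their medians the Snai2 difference in non-SP cells was 0.02, so its anti-EpCAM arrays could not all lie below there. Members lay below the median of all genes in 7 of 10 cases in non-SP cells, with a median of -0.16 against -0.10 for all genes. In SP cells 4 of 10 did, with a median of -0.11 against -0.12. In bulk RNA, fewer cells of a type and less RNA per cell cannot be told apart.

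Between the fractions of anti-EpCAM cells 8 of 10 members lay above the median of all genes, which was -0.03, with a member median of 0.13. In untreated cells 3 of 10 did, with a member median near 0 and a range from -0.17 for Twist1 to 0.23 for Snai2. In the limma fit without pairs, 0 members had an unadjusted p under 0.05 in either comparison. The shares of all genes were 0.698% in anti-EpCAM and 0.0220% in untreated cells. With all SP arrays on 1 side of all non-SP arrays there were also 0 members, against 2.35% and 2.37% of genes. Both counts leave out the likeness of SP and non-SP arrays of 1 number. With these as a block, Cdh1 and Zeb2 were the only members among 1311 of 18193 genes with such a p between anti-EpCAM fractions. Neither passed, with an adjusted p of 0.628 for both in limma.

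The SP and non-SP arrays of 1 number and treatment resembled each other, so the fractions were also compared within these pairs. Cdh1 was higher in SP cells by 0.91 and 0.93 in the anti-EpCAM pairs numbered 1 and 2 and stood at -0.02 in the pair numbered 3. Zeb2 differed by 0.49, 1.18 and -0.13 and Tgfbi by 0.88, 0.36 and -0.09 in the same pairs. All 3 genes were thus higher in SP cells in 2 anti-EpCAM pairs and close to or below 0 in the third. In the untreated pairs Cdh1 differed by -0.32, -0.13 and 0.28, Zeb2 by 0.06, -0.19 and 0.41 and Tgfbi by -0.47, -0.14 and 0.58. Over all 6 pairs the mean was 0.28 ± 0.54 for Cdh1, 0.30 ± 0.51 for Zeb2 and 0.18 ± 0.51 for Tgfbi (SD, n = 6), with 3 (Cdh1), 4 (Zeb2) and 3 (Tgfbi) pairs higher in SP cells. With the pair as a block, the anti-EpCAM difference had an unadjusted p of 0.0127 for Cdh1 and 0.0463 for Zeb2, and the adjusted p was 0.628 for both in limma. That fit gave 1311 genes with an unadjusted p under 0.05 and 0 past the threshold in anti-EpCAM cells, and 305 and 0 in untreated cells, against 127 (anti-EpCAM) and 4 (untreated) without the block.

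**Figure D3:**
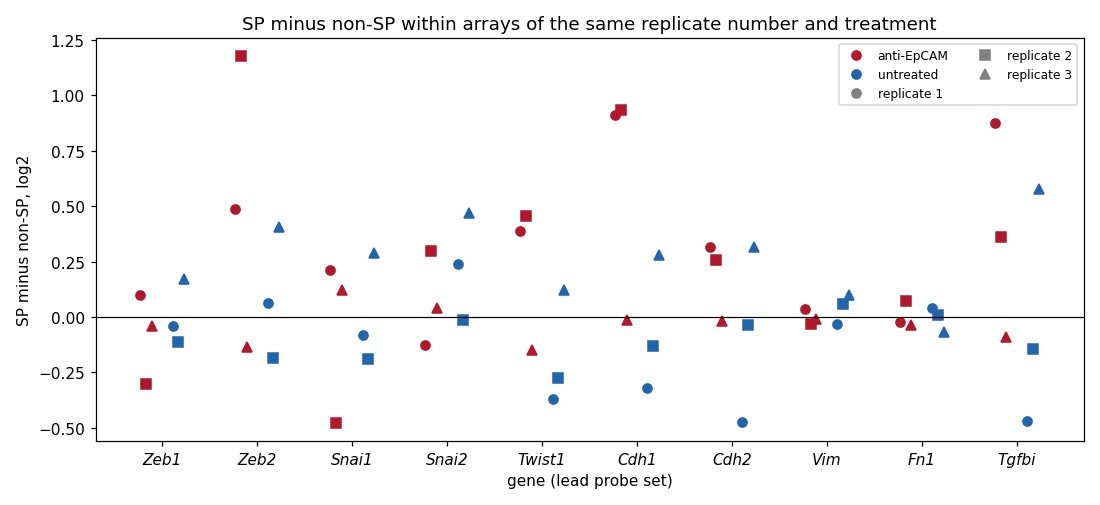
SP minus non-SP difference of the lead probe set (vertical axis, log2) for each gene, within arrays of the same replicate number, in anti-EpCAM (red) and untreated (blue) cells; symbols give the replicate number. The anti-EpCAM pairs numbered 1 and 2 of Cdh1 stand at 0.91 and 0.93 and that numbered 3 at -0.02, and Vim and Fn1 stay within -0.07 and 0.10 in all 6 pairs.

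All 25 probe sets of the members were compared for the antibody. In non-SP cells 23 of 25 (92.0%) were lower with the antibody, against 70.9% of all probe sets with 1 symbol, and 20 of 25 lay below the median of all. The 5 with no overlap, against 7.63% of all, were both highest Zeb2 probe sets, the Snai2 lead, a Vim probe set and the second Fn1 probe set. In SP cells 16 of 25 (64.0%) were lower, against 75.5%, and 12 of 25 lay below the median of all. There 1 probe set, Zeb1 1443005_at at -0.33, had no overlap (4.0%, against 8.29%). Probe sets of a gene share its transcripts and are not independent. Those of Zeb2 did not move as one, with Pearson r of -0.567 to 0.728 with the lead. Its second highest, 1434298_at, read 7.38, 6.65 and 6.16 in anti-EpCAM SP arrays and 5.87, 5.05 and 6.45 in anti-EpCAM non-SP arrays. It read 6.56, 6.38 and 7.03 in untreated SP arrays and 6.71, 6.53 and 6.65 in untreated non-SP arrays. Its antibody difference was -0.84 ± 0.35 (SE) in non-SP cells, close to that of the lead, but 0.07 ± 0.35 (SE) in SP cells. Smaller differences than the lead's were read in non-SP cells by 1422748_at, -0.54 ± 0.30 (SE), and 1458941_at, -0.24 ± 0.25 (SE). In SP cells these gave -0.09 (1422748_at) and -0.37 (1458941_at). The lowest Zeb2 probe set, 1454200_at at a mean of 3.42, gave 0.28 and 0.18.

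**Figure D4:**
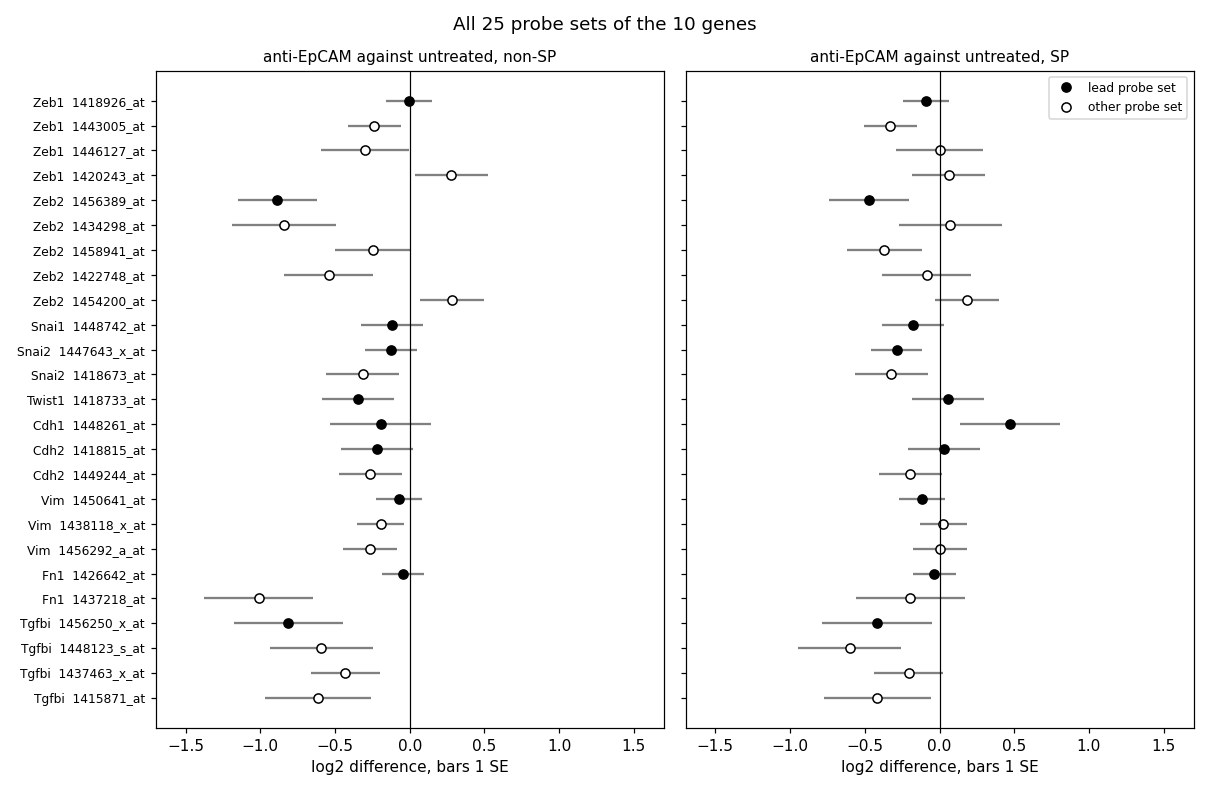
Antibody difference (horizontal axis, log2, bars 1 SE) of all 25 probe sets in non-SP cells (left) and SP cells (right); filled points are the lead probe sets. In non-SP cells 23 of 25 points lie below 0, with Fn1 1437218_at at -1.01, and in SP cells Cdh1 has the highest point at 0.47.

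Epithelial genes that Zeb and Snail proteins hold down were then read as a group, all 18 of them measured. None of the 18 passed in any comparison (0 higher, 0 lower). With the antibody 8 lay below the median of all genes in non-SP cells and 9 in SP cells, with list medians of -0.06 and -0.13. In non-SP cells the lowest moderated t belonged to Ap1m2, an epithelial clathrin adaptor, at -0.55 ± 0.18 (SE), and to Esrp2, an epithelial splicing factor, at -0.23. The highest belonged to Ovol2 at 0.36 and Esrp1 at 0.29. In SP cells Ap1m2 was at -0.59 ± 0.18 (SE) and Crb3, a polarity gene, at -0.50 ± 0.19 (SE), with Grhl1 highest at 0.18. Between the anti-EpCAM fractions 14 of 18 lay below the median of all genes. Mal2, a transport protein of polarised cells, stood at 0.65 ± 0.36 (SE) there and Crb3 and Ovol2 at -0.36 and -0.37. The list median there was -0.10, while Cdh1 itself, which is not in the list, stood at 0.61. Between the untreated fractions 12 lay above the median of all genes, with Grhl2 at 0.30.

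Of 18 other mesenchymal genes 16 were measured, and none passed. In non-SP cells 7 lay below the median of all genes with the antibody, and in SP cells 9, with list medians of -0.07 and -0.14. Itga5, the fibronectin receptor subunit, had the lowest t in non-SP cells at -0.83 ± 0.22 (SE, unadjusted p = 0.00262, limma), and was at -0.35 ± 0.22 (SE) in SP cells. The matrix protease gene Fap had the highest t in both, at 0.29 and 0.20. The proteoglycan gene Spock1 was lowest between the anti-EpCAM fractions at -0.49 ± 0.25 (SE). Of 15 other transcription factors of the transition 13 were measured, and none passed. Foxq1 and Tcf4 were lowest with the antibody in non-SP cells, at -0.48 ± 0.21 (SE) and -0.75 ± 0.44 (SE). Tcf4, a partner of Twist proteins, was highest between the anti-EpCAM fractions at 0.82 ± 0.44 (SE). Snai3, the third Snail gene, had the highest t with the antibody in both fractions, at 0.33 in non-SP and 0.16 in SP cells.

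Tgfbi is a TGF-beta target, so the pathway was read from ligand to target. None of the 16 ligands, receptors and Smads passed, and 12 lay below the median of all genes with the antibody in non-SP cells, against 6 in SP cells. The receptor gene Tgfbr1 had the lowest t in non-SP cells, at -0.38 ± 0.18 (SE), followed by the inhibitor Smad7 at -0.25 ± 0.16 (SE). In SP cells the corepressor gene Ski was lowest at -0.43 ± 0.23 (SE), and Smad7 was highest at 0.18 ± 0.16 (SE). Of 13 immediate TGF-beta targets the arrays read 12, and none passed. For 2 of these the annotation holds an older symbol. In non-SP cells 10 of 12 lay below the median of all genes with the antibody, with a list median of -0.23 against -0.10, and in SP cells 4 of 12, with -0.01 against -0.12. Pmepa1, a feedback inhibitor of the pathway, was lowest in both, at -0.64 ± 0.22 (SE) in non-SP and -0.48 ± 0.22 (SE) in SP cells. Smad7, Skil and Ltbp2 are in both lists.

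Partners of the cadherins and of the repressors were read last, against all-gene medians of -0.10 in non-SP and -0.12 in SP cells for the antibody. Of 15 catenins and other cadherins none passed, with list medians of -0.11 in non-SP and -0.10 in SP cells. In SP cells their values ran from -0.54 to 0.33. Cdh13, a cadherin without a cytoplasmic tail, had the lowest moderated t in non-SP cells at -0.37 ± 0.18 (SE) and Cdh17 in SP cells at -0.54 ± 0.31 (SE). Of 12 corepressors and partners of Zeb and Snail none passed, with list medians of -0.10 in non-SP and -0.01 in SP cells. The deacetylase gene Hdac2 had the lowest moderated t in non-SP cells at -0.29 ± 0.19 (SE), and Kdm1a, a histone demethylase recruited by Snail, in SP cells at -0.18 ± 0.16 (SE).

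For the members with most spread, the genes most like them over the 12 arrays were sought by Pearson r among 8911 named genes at or above the median level. Tgfbi was most like Sec23a, a coat protein gene of vesicles leaving the endoplasmic reticulum, at an r of 0.978. Prcd, Cldn34c1 and Dgkz followed at 0.963, 0.953 and 0.950. Zeb2 was most like Nrbf2 at 0.968, then Chsy1, Mospd2 and Wasf1 at 0.928, 0.923 and 0.921. Cdh1 was most like F2r, the thrombin receptor gene, at 0.934, then Haus6, Trim59 and Syncrip at 0.924, 0.894 and 0.887. These genes were picked for likeness and the members for spread, so smaller differences than those of the members carry no weight. In non-SP cells their antibody differences were all smaller. Examples are -0.41 for Sec23a and -0.48 for Cldn34c1, and -0.27 for Nrbf2 and -0.63 for Mospd2. Among the members themselves Cdh2 and Twist1 had the highest r, 0.892, then Cdh2 and Tgfbi at 0.796, while Zeb1 and Fn1 had the lowest, -0.716. Arrays of 1 number and treatment are alike, so fewer than 12 independent points stand behind each r, and no test was made.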

How the data were processed

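Per the labels' protocols, 200 ng of total RNA from sorted A2C12 cells were labelled with biotin for Affymetrix mouse arrays, and reserpine at 50 µmol/l was used beside the Hoechst stain. The authors deposited log2 values made by RMA, per the submitters' processing notes. Which software made them, and whether arrays were scaled afterwards, is not given in the sources used here. Of 45101 probe sets, 34945 had 1 symbol in the platform annotation, 932 had several, 9160 had none and 64 were controls. No filter on level was applied. A linear model per gene, with the 4 group means over 12 arrays, was fitted by limma 3.58.1 under R 4.3.3, and its variances were moderated by eBayes with no trend (8 residual degrees of freedom). Tests were two-sided, and an adjusted p under 0.05 (Benjamini-Hochberg over 18193 genes) counted as passing. The distance from estimate to 95% limit was 0.46 log2 units (1.38-fold) in the median gene. The procedure was tested on simulated data for the antibody in non-SP cells. It recovered 51% of 100 genes changed by 1 log2 unit and 97% of 100 changed by 2. The simulated arrays were independent, without the likeness of SP and non-SP arrays of 1 number. Members, lists, markers and tests were chosen with earlier results of these data known.

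All members are named. Of each other list, the 2 highest and 2 lowest by moderated t in the comparison discussed may be named, and for Cdh1, Zeb2 and Tgfbi the 4 genes with the highest Pearson r over the arrays. Replicate numbers come from the labels, which do not say whether the SP and non-SP sample of 1 number came from 1 culture. Deviations from group means correlated over genes at 0.751, 0.618 and 0.562 between the anti-EpCAM arrays of 1 number and at 0.656, 0.844 and 0.550 between the untreated ones, so these were taken as pairs in a blocked alternative. Between treatments they ran from -0.379 to -0.0054, which gave no ground for pairs. The blocked alternative of the antibody comparisons nevertheless held the replicate number as a term. Alternatives were the block, other scalings, a trend, a filter on low genes, the mean of probe sets, only the groups compared and arrays left out. Fitting all probe sets with 1 symbol together was added after the data were seen. Sequences came from RefSeq tables, and no genome was used.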

Additional observations from a re-analysis of the deposited data

How the results depend on the processing

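The count of genes past the threshold stayed at 0 in all 5 comparisons under 15 to 20 other settings each. The lowest adjusted p of any gene under any of them was 0.400 and that of a member 0.628, and the genes with an unadjusted p under 0.05 numbered 1 to 1630. For the antibody in non-SP cells those numbered 94 higher of 585 as deposited, 537 of 630 with centred arrays and 323 of 549 after quantile normalization, and in SP cells 20 of 835, 180 of 415 and 201 of 426. Between anti-EpCAM fractions they were 54 of 127, 73 of 162 and 101 of 167, and in the interaction 7 of 43, 10 of 69 and 23 of 61. With the replicate block 305 genes (untreated fractions), 1311 (anti-EpCAM fractions) and 1002 (interaction) had such a p, and with the replicate number as block 930 (non-SP antibody) and 1158 (SP antibody). The block changed no call. The median of all genes moved with centring to 0.05 in non-SP and 0.04 in SP cells for the antibody, against -0.10 and -0.12 as deposited. Of 50 member values, 20 kept their sign under all settings, among them the antibody differences of Zeb2 and Tgfbi in both fractions and the anti-EpCAM fraction differences of Cdh1, Zeb2 and Tgfbi. Their sizes were less steady. With 1 array left out, the antibody difference ran from -1.04 to -0.76 (Zeb2) and -1.21 to -0.53 (Tgfbi) in non-SP cells, and from -0.68 to -0.12 (Zeb2) and -0.74 to -0.22 (Tgfbi) in SP cells. The anti-EpCAM fraction difference ran from 0.46 to 0.90 (Cdh1), 0.30 to 0.86 (Zeb2) and 0.10 to 0.78 (Tgfbi). Zeb2 was at -0.12 and 0.86 without the anti-EpCAM SP array numbered 3 and at 0.30 without that numbered 2. Tgfbi was at -0.53 and 0.10 without the anti-EpCAM non-SP array numbered 1 and at 0.78 without that numbered 3, and in SP cells at -0.74 and -0.22 without the untreated SP arrays numbered 1 and 2. The largest value that turned sign was 0.23 in size, and the cause was not tested.

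Values whose sign turned were, with centred arrays, for the antibody in non-SP cells 0.14 (Zeb1), 0.0256 (Snai1), 0.021 (Snai2), 0.0744 (Vim) and 0.10 (Fn1), for the antibody in SP cells 0.0653 (Zeb1), 0.04 (Vim) and 0.12 (Fn1) and between anti-EpCAM fractions 0.0108 (Vim). After quantile normalization they were for the antibody in non-SP cells 0.14 (Zeb1), 0.0654 (Snai1), 0.0029 (Vim) and 0.0233 (Fn1), for the antibody in SP cells 0.0479 (Fn1) and between anti-EpCAM fractions -0.0012 (Fn1). Without both anti-EpCAM arrays numbered 2 they were for the antibody in non-SP cells 0.0084 (Vim), for the antibody in SP cells 0.022 (Snai1), between anti-EpCAM fractions 0.0285 (Zeb1), 0.16 (Snai1), -0.0436 (Snai2), 0.0124 (Vim) and -0.0299 (Fn1) and in the interaction 0.0219 (Zeb1), 0.16 (Snai1) and -0.0234 (Fn1). With the mean of a gene's probe sets they were for the antibody in SP cells -0.0834 (Cdh2), between anti-EpCAM fractions 0.13 (Vim), between untreated fractions -0.0204 (Vim) and 0.0395 (Tgfbi) and in the interaction 0.15 (Vim).

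With 1 array left out, signs turned between untreated fractions within ranges of -0.0951 to 0.0886 (Zeb1), -0.0061 to 0.21 (Zeb2), -0.15 to 0.10 (Snai1), -0.41 to 0.24 (Cdh1), -0.17 to 0.14 (Cdh2), -0.0187 to 0.0967 (Vim), -0.0505 to 0.0685 (Fn1) and -0.21 to 0.31 (Tgfbi). Between anti-EpCAM fractions the ranges were -0.22 to 0.15 (Snai1), -0.0727 to 0.19 (Snai2), -0.0413 to 0.49 (Twist1), -0.0091 to 0.39 (Cdh2), -0.083 to 0.0933 (Vim) and -0.0206 to 0.0393 (Fn1). For the antibody in non-SP cells the ranges were -0.0833 to 0.0767 (Zeb1) and -0.13 to 0.0084 (Vim). For the antibody in SP cells the ranges were -0.17 to 0.0092 (Zeb1), -0.35 to 0.022 (Snai1), -0.0361 to 0.22 (Twist1), -0.17 to 0.19 (Cdh2) and -0.11 to 0.0085 (Fn1). In the interaction the ranges were -0.17 to 0.0128 (Zeb1), -0.23 to 0.14 (Snai1), -0.13 to 0.0501 (Vim) and -0.0644 to 0.0546 (Fn1). A group left with 2 arrays shares the spread of the other groups in these fits.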
